A study of Homo sapiens with 4 samples.

Results

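Interferon-stimulated genes are genes whose transcription rises when a cell senses interferon, and 38 of them were followed in prostate cancer cells with and without an shRNA against SIAH2. The 38 genes were taken as a fixed list, and every array probe that the platform annotation assigns to one of them, under its current symbol or an older alias, was counted as a member. By that rule 30 genes had a named probe, with 36 probes among the 18007 probes that carry 1 gene symbol. Only probes detected (detection p under 0.05) on at least 1 array carry a name here, so all 30 of these genes were detected somewhere. The other 8, DDX60, OAS2, OASL, IFIT1, SAMD9, SAMD9L, IFI27 and STAT2, had no probe with a name here and were not analysed, so nothing is said of their detection. Of the 30, 28 genes with 32 probes passed the filter for testing, a detection p under 0.05 on at least 2 of the 4 arrays, among 11894 named genes and 20750 probes that passed it. IFIT5 and MX2 were detected on 1 array each, a pLKO.1 array both times, and were not tested.

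The cells were CWR22Rv1, a human prostate carcinoma line from a xenograft that relapsed after castration. Per the labels, 2 arrays held RNA of cells that carry the control vector pLKO.1, and 2 arrays RNA of cells that express an shRNA against Siah2. Both groups grew in 10% serum with puromycin at 1 µg/ml, and the labels name no interferon treatment. The labels name 1 shRNA and do not say whether the cells were a clone or a pool. Nor do they tell whether replicates were independent cultures, and each p-value below therefore reflects only array-to-array spread, possibly all technical. SIAH2, an E3 ubiquitin ligase gene and the target of the shRNA, had normalized intensities of 8.08 and 8.33 on the pLKO.1 arrays and 6.20 and 6.51 on the shSiah2 arrays. The adjusted p was 0.00117 by limma, and the log2 level fell by 1.85 with an SE of 0.251. All values below are log2 intensities after background correction and quantile normalization, all changes are shSiah2 minus pLKO.1, and the verbs rose and fell are kept for an adjusted p under 0.05 over all 20750 probes. Where another setting is named, these verbs refer to the adjusted p of that setting's own fit.

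Between 42.1% and 43.7% of the 47228 probes were detected per array, and arrays correlated at 0.985 and 0.983 within the groups and at 0.957 to 0.969 between them. The epithelial genes EPCAM, KRT8, KRT18 and CDH1 were detected on all 4 arrays and lay between -0.09 and 0.34 on their brightest probes (a second KRT18 probe lay at -0.70 and was not called), while the prostate genes HOXB13 and FOLH1 fell by 1.58 and 1.08. Of 10 leukocyte markers, 7 had no named probe and 1, CD14, was tested (0.80, adjusted p = 0.181 by limma), and of 5 dendritic cell markers IL3RA lay at 0.04 and TCF4 at -0.57, neither past the threshold. No endothelial marker of 5 was tested, and of 6 stromal markers DCN fell by 1.98 on its brighter probe (0.67 on the other), ACTA2 rose by 1.11 and COL1A1 lay at 0.11. The part of these shifts in the results below was not tested.

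Cells meet interferon in a chain of steps. RNA sensors such as IFIH1 and RIGI bind viral RNA and start interferon production, secreted interferon binds its receptors, and JAK kinases then activate STAT proteins, which with IRF9 bind a promoter element called the ISRE (interferon-stimulated response element) and switch on effector genes. Some effectors block viral RNA or membranes directly (MX, IFIT and IFITM proteins), and the ubiquitin-like protein ISG15 is attached to other proteins by UBE2L6 and HERC5 and removed by USP18. PARP9 and PARP14 are ADP-ribosyltransferase family proteins of the same response. Tumour cells can carry a low level of this program without added interferon.

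The ISRE is built from repeats of an IRF half-site, and the RefSeq promoter windows (GRCh38.p14, 250 bases before to 50 after a start) were searched on both strands for the 9-letter repeat GAAANNGAA. Windows were found for 31 of the 38 genes, 40 windows in all. The repeat stood in 27 of these 40 (67.5%), against 8.11% of all 35116 RefSeq windows. By gene it stood in a window of 6 of the 6 genes that fell. Of the 18 tested members with a window that were not called, it stood in 11, beside 8.48% of all tested genes with a window. By window the counts were 7 of 9 and 14 of 23. UBE2L6, not called by its brightest probe, fell on its dimmer probe (below), and its windows held no match. The difference between called and uncalled members was not tested. The GAS motif TTCNNNGAA, which STAT dimers bind, stood in 10 of the 40 (25%) against 7.66% of all windows, and 5 of its 11 matches overlapped a GAAANNGAA match by sharing bases. A match is only these letters in this window and was not tested as a site, and other spacings of the half-site were not searched. The stretches below are those of the 6 genes that fell, set beside ISG15, which holds the longest run of repeats with IFIH1 but was not called. They run 5′ to 3′ on the gene's strand with every GAAANNGAA match, or its reverse complement, in capitals. HERC5, PARP14, IFITM1 and ISG15 are shown over the 180 bases before the start, and IFIH1, PARP9 and MX1 over the 30 bases around a match. A second IFITM1 match runs past the start and is shown as far as the start.
HERC5 (chr4:88456939-88457118, + strand): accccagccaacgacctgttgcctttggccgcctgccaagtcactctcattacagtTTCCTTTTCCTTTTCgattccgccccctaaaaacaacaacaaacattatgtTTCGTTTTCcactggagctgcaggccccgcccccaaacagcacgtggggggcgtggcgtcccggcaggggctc
PARP14 (chr3:122680659-122680838, + strand): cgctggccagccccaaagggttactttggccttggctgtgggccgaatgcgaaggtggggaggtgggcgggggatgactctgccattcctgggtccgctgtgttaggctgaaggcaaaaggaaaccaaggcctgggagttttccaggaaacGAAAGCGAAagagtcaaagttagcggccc
IFITM1 (chr11:313860-314039, + strand): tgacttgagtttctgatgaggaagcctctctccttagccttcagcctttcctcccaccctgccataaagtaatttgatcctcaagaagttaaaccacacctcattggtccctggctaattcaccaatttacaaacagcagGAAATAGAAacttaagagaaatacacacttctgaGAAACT
IFIH1 (chr2:162318823-162318852, - strand): agaaTTCGCTTTCCTTTTCTGTTTCccgcg
PARP9 (chr3:122564321-122564350, - strand): ggcgcaaagtTTCAGTTTCgcttccctgga
MX1 (chr21:41420562-41420591, + strand): cagaaatGAAACCGAAACTGAAttgtccgg
ISG15 (chr1:1013317-1013496, + strand): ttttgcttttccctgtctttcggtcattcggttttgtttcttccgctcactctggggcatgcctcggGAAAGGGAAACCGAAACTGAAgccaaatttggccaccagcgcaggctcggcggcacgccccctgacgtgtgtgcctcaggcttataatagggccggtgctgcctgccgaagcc

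The IFIH1 stretch of 21 bases begins 164 bases before the start and a further match begins 21 bases before it. In HERC5 a stretch of 15 bases begins 124 bases and another match 73 bases before the start. Single matches begin 29 bases before the PARP14 start and 40 bases before a PARP9 start, the latter across the start of the gene DTX3L, which is read the other way. The MX1 stretch of 15 bases begins at base 12 of the transcript. The ISG15 stretch of 21 bases begins 113 bases before its start. HERC6, RIGI, XAF1, UBE2L6, IRF1, IRF9, OAS1, SAMD9L and STAT2 had windows with no match. Repeats with another spacing were not counted, such as GAAACGAAA in the windows of OAS1, RIGI, XAF1 and the called PARP14.

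Interferon-stimulated genes were lower in the shSiah2 cells for a limited set of members. Of the 28 tested genes, each read by its brightest probe, 6 fell, 0 rose and 22 did not pass by limma. The 6 were IFIH1, HERC5, PARP14, PARP9, MX1 and IFITM1. They make up 21.4% of the tested members, where 4.51% of all 11894 tested genes fell and 2.72% rose. IFITM1 passed the detection filter through its pLKO.1 arrays alone. Among the 21 members detected on all 4 arrays, 6 fell, with HERC6 in place of IFITM1, where 5.71% of all genes so detected fell. At an unadjusted p under 0.05 by limma, 11 of the 28 members were lower and 1 was higher. Of all tested genes 12.3% were lower and 10.6% higher. Both shSiah2 arrays lay below both pLKO.1 arrays for 13 members (46.4%, against 26% of all tested genes) and above them for 2 (against 27.3%), and 13 overlapped. IFIT2, which like IFITM1 passed the detection filter through its pLKO.1 arrays alone, is with IFITM1 among these 13 lower members and the 11 above. The median change was -0.28, beside 0.01 over all tested genes. In these bulk samples, fewer cells that express a gene and less of its RNA per cell cannot be told apart.

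**Figure D1:**
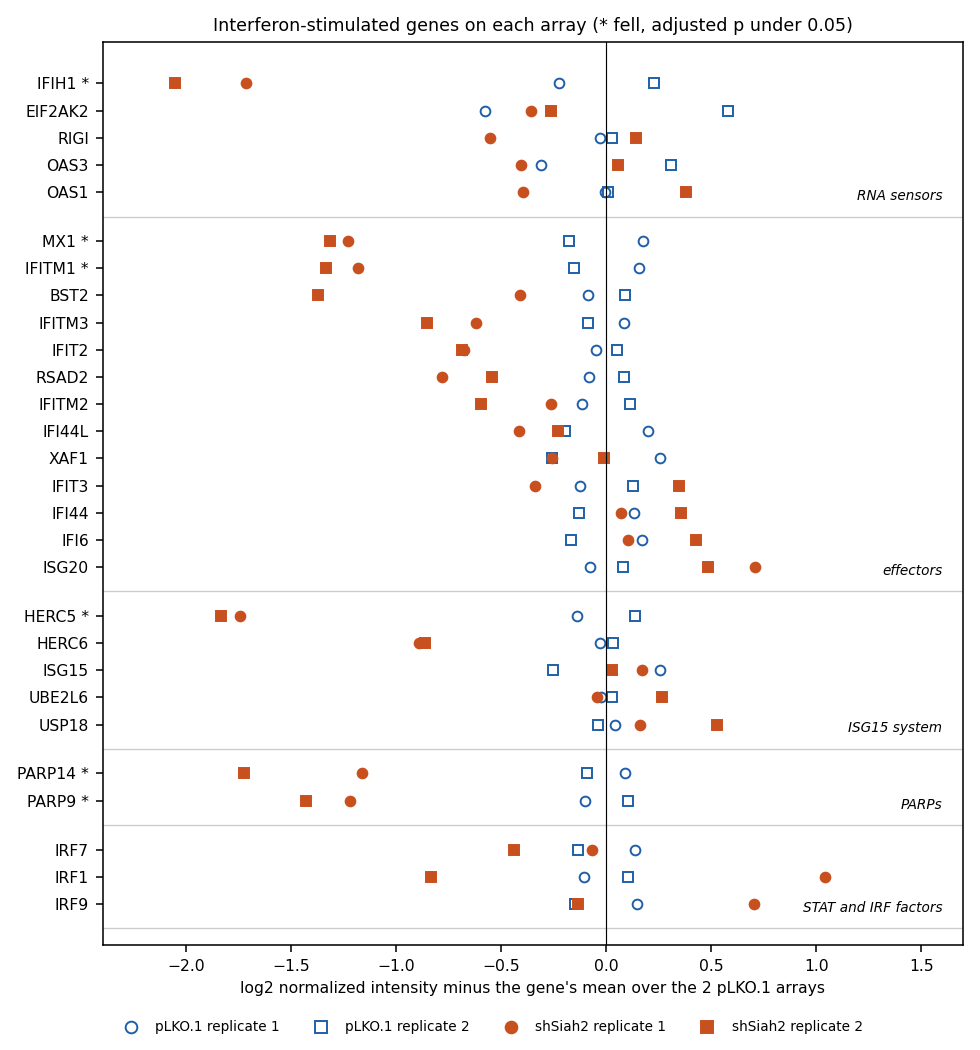
Log2 normalized intensity of each of the 28 tested genes on each array, minus that gene's mean over the 2 pLKO.1 arrays (x axis), with genes in rows by role. Open blue marks are the pLKO.1 arrays, filled orange marks the shSiah2 arrays, circles replicate 1 and squares replicate 2, and a star marks the 6 genes that fell. For those 6 both orange marks lie to the left of both blue marks, with IFIH1 furthest.

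**Figure D2:**
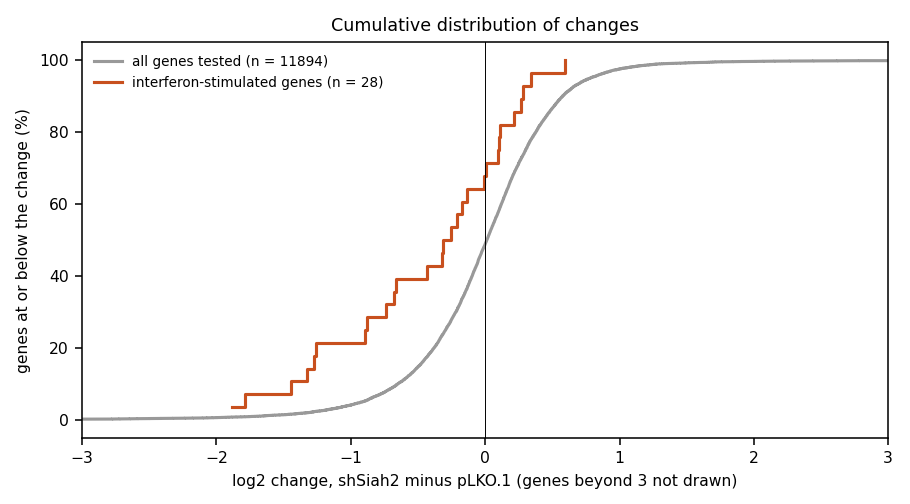
Share of genes (y axis, percent) at or below each log2 change (x axis, shSiah2 minus pLKO.1) for the 28 tested interferon-stimulated genes in orange and all 11894 tested genes in grey. The orange curve crosses 50% near its median of -0.28 and the grey curve at 0.01.

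Among the RNA sensors, 1 of 5 tested genes fell, where 4.51% of all tested genes did. IFIH1, which encodes MDA5, a sensor of long double-stranded RNA, read 7.58 and 8.03 on the pLKO.1 arrays and 6.09 and 5.75 on the shSiah2 arrays. The groups stood well apart, and it fell by 1.89 (3.7-fold, SE 0.264, adjusted p = 0.00148 by limma), the lowest change among the 28 genes. Its 5.75 on shSiah2 replicate 2 was not far above the lowest value of a detected probe on that array, 5.48. RIGI, the sensor of short and end-marked RNA, read 5.48 and 5.54 against 4.95 and 5.65, so that the groups overlapped (-0.21, 95% interval -0.81 to 0.40), and it was detected on 1 array of each group. EIF2AK2, the kinase PKR that halts translation on double-stranded RNA, read 7.93 and 9.09 against 8.15 and 8.25, with its pLKO.1 arrays further apart than any other member's (change -0.31, interval -1.05 to 0.43). The oligoadenylate synthetase genes OAS1 and OAS3, whose products activate RNase L, lay at -0.0087 (interval -0.63 to 0.62) and -0.18 (interval -0.80 to 0.45). The difference between IFIH1 and the other sensors was not tested.

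Among the effectors, 2 of 13 tested genes fell, where 4.51% of all tested genes did. For 8 of the 13 both shSiah2 arrays lay below both pLKO.1 arrays, a pattern shown by 26% of all tested genes. IFITM1 and IFIT2 are among these 8, and they passed the detection filter through their pLKO.1 arrays alone. MX1, a dynamin-like GTPase that traps viral nucleocapsids, read 9.62 and 9.27 against 8.22 and 8.13. It fell by 1.28 (2.42-fold, SE 0.248, adjusted p = 0.0112 by limma), and its shSiah2 arrays differed by less than its pLKO.1 arrays. IFITM1, a membrane protein that blocks viral entry, read 6.35 and 6.03 against 5.01 and 4.86. The probe was detected on both pLKO.1 arrays and on neither shSiah2 array, so only a bound holds for the fold. It fell by 1.26 on the fitted scale (adjusted p = 0.0118 by limma) and was at least 1.65-fold lower, with each dim array set to its lowest signal among detected probes. Its neighbours in the same gene cluster did not pass. IFITM3 read 10.27 and 10.10 against 9.56 and 9.33, apart in all 4 pairs of arrays (-0.74, interval -1.27 to -0.20, adjusted p = 0.104 by limma). IFITM2 read 10.01 and 10.24 against 9.86 and 9.53 (-0.43, interval -0.98 to 0.12). Probes may not separate these near-identical family members, which was not tested. The IFITM1 probe was not detected on the shSiah2 arrays, where IFITM2 and IFITM3 read 9.33 to 9.86.

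BST2, the tetherin that holds budding virions on the cell surface, read 6.38 and 6.56 against 6.06 and 5.10. Its shSiah2 arrays were both lower but spread (SD 0.68), and the change of -0.89 (interval -1.57 to -0.21) had an adjusted p = 0.122 by limma. IFIT2, which binds viral RNA and inhibits translation, read 5.66 and 5.76 against 5.04 and 5.03, and it was detected on both pLKO.1 arrays and no shSiah2 array (-0.68, at least 1.19-fold, adjusted p = 0.121 by limma). RSAD2, the antiviral enzyme viperin, read 5.96 and 6.12 against 5.26 and 5.49 (-0.66, adjusted p = 0.141 by limma). For these 3 dim genes both shSiah2 arrays lay below both pLKO.1 arrays, as for 26% of all tested genes, and the test was not passed. IFI44L lay at -0.32, XAF1, a pro-apoptotic partner of XIAP, at -0.14, IFIT3 at 0.0027 and IFI44 at 0.21. ISG20, an RNA exonuclease, ran the other way, with 9.77 and 9.93 against 10.56 and 10.34 (0.60, interval 0.07 to 1.13, adjusted p = 0.185 by limma).

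The ISG15 conjugation genes were split. HERC5, the ligase that joins ISG15 to newly made proteins, read 9.64 and 9.92 on the pLKO.1 arrays and 8.03 and 7.94 on the shSiah2 arrays. It fell by 1.79 (3.46-fold, SE 0.244, adjusted p = 0.00121 by limma). HERC6, the next gene on chromosome 4 and a related HECT-domain gene, read 7.25 and 7.32 against 6.39 and 6.42. Its groups were tight and apart, at -0.88, and its adjusted p = 0.0509 by limma lay just outside the threshold, whereas 5 of 14 other settings passed it (adjusted p = 0.0241 to 0.189 over all of them). ISG15 itself, the modifier, read 12.37 and 11.86 against 12.29 and 12.14 (0.10, interval -0.47 to 0.67), so the groups overlapped. USP18, the protease that removes ISG15 and dampens interferon receptor signalling, read 8.17 and 8.09 against 8.29 and 8.66 (0.34, interval -0.20 to 0.89).

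Both PARP genes fell, where 4.51% of all tested genes did. PARP9, which works in a complex with the ubiquitin ligase DTX3L, read 8.64 and 8.84 against 7.52 and 7.31 on its brighter probe and fell by 1.33 (2.51-fold, SE 0.244, adjusted p = 0.00834 by limma). PARP14, a mono-ADP-ribosyltransferase, read 7.31 and 7.13 against 6.06 and 5.50 and fell by 1.44 (2.72-fold, SE 0.266, adjusted p = 0.00836 by limma). Its 5.50 on shSiah2 replicate 2 lay near the lowest value of a detected probe on that array, 5.48. The shSiah2 arrays of PARP14 were the more spread of this pair of genes, at an SD of 0.397 against 0.15 for PARP9. DTX3L, the gene beside PARP9 and read the other way, had 5.61 and 5.53 against 4.80 and 5.39 (-0.47, interval -1.05 to 0.11, adjusted p = 0.345 by limma).

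Of the STAT and IRF factors, 0 of 3 tested genes passed by limma, where 4.51% of all tested genes fell and 2.72% rose. None passed at an unadjusted p under 0.05. IRF1, an interferon-induced activator, read 5.83 and 6.04 on the pLKO.1 arrays but 6.98 and 5.10 on the shSiah2 arrays, the widest gap of any member within a group, so its change of 0.10 has an interval from -0.90 to 1.10. IRF9, the DNA-binding partner of the STATs at the ISRE, read 8.55 and 8.26 against 9.11 and 8.27 (0.28, interval -0.37 to 0.94). IRF7, which amplifies interferon transcription, read 8.14 and 7.87 against 7.94 and 7.57 (-0.25, interval -0.81 to 0.30). For these 3 the groups overlapped.

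Of the 28 genes, 4 had 2 tested probes, and they did not always move together. Both PARP9 probes passed: the brighter fell by 1.33 and the dimmer fell by 1.42. The dimmer IFI6 probe (ILMN_1687384) read 7.55 and 7.64 against 6.73 and 5.81 and fell by 1.33 (adjusted p = 0.0255 by limma), whereas the probe with the higher mean (ILMN_2347798) read 7.21 and 6.87 against 7.15 and 7.47 and lay at 0.26. IFI6 encodes a mitochondrial protein that protects from apoptosis. UBE2L6, the conjugating enzyme for ISG15, showed the same split. Its dimmer probe (ILMN_1769520) read 6.55 and 6.22 against 4.91 and 4.68 and fell by 1.59 (at least 1.89-fold, adjusted p = 0.00313 by limma), with no detection on either shSiah2 array, while the other probe (ILMN_1703108) read 5.93 and 5.98 against 5.91 and 6.21 and lay at 0.11. On the pLKO.1 arrays the probe that fell was the brighter of the pair for both genes. The IRF7 probes lay at -0.25 and 0.12. Counting a gene as lower when any of its probes fell gave 8 of 28 members (28.6%), against 5.04% of all tested genes. In this count UBE2L6 and IFITM1 entered through probes detected on the pLKO.1 arrays only. By limma, 0 members had a probe that rose, against 3.14%. Which transcripts each probe reads was not tested.

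**Figure D3:**
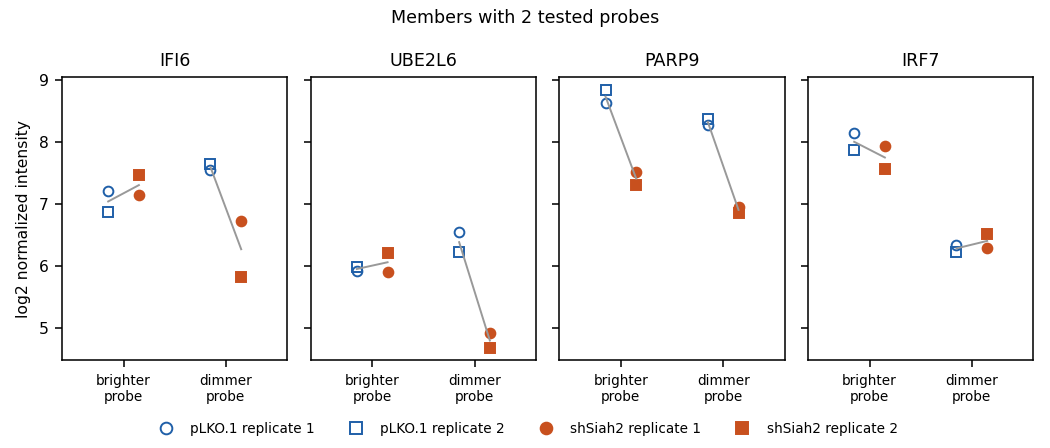
Log2 normalized intensity (y axis) on each array for the 4 genes with 2 tested probes, the brighter probe on the left of each panel. Open blue marks are pLKO.1 arrays, filled orange marks shSiah2 arrays, circles replicate 1 and squares replicate 2, and grey lines join group means. Both PARP9 probes are lower in shSiah2 cells, whereas only the right-hand probe is lower for IFI6 and UBE2L6.

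A list of 76 further genes of the pathway, from ligands and receptors to regulators and other interferon-responsive genes, showed no call. Of 45 tested, 0 fell and 0 rose by limma, where 4.51% of all tested genes fell and 2.72% rose. The median was -0.05, and the difference from the 28 members was not tested. At an unadjusted p under 0.05, 5 of the 45 were lower and 1 higher, a share of lower genes near the 12.3% of all tested genes. All 7 interferon ligand genes had no named probe. The 6 receptor genes lay between -0.23 and 0.29. The type I receptor genes IFNAR1 and IFNAR2 were at 0.06 (interval -0.47 to 0.59) and 0.14 (interval -0.39 to 0.66), the type II genes IFNGR1 and IFNGR2 at 0.29 and -0.14, and the type III genes IFNLR1 and IL10RB at -0.05 and -0.23. Of the kinases and factors, JAK2 read 6.16 and 6.41 against 7.14 and 6.90 and stood higher on both shSiah2 arrays (0.73, adjusted p = 0.111 by limma). TYK2 lay at -0.38, STAT3 at 0.15, IRF3 at -0.13 and IRF2 at 0.18.

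Among 7 tested genes of sensing upstream of interferon and 22 further interferon-responsive genes, 0 passed the threshold. The 5 lowest changes had an adjusted p from 0.0541 to 0.147 by limma. DHX58, the regulator of RIGI and IFIH1, read 6.85 and 6.14 against 5.90 and 5.11 (-0.99, adjusted p = 0.0997 by limma). PLSCR1, a phospholipid scramblase, read 6.32 and 6.23 against 5.02 and 5.60 (-0.97, adjusted p = 0.0541 by limma). PARP12, a zinc-finger PARP, read 7.77 and 7.25 against 6.63 and 6.58 (-0.91, adjusted p = 0.0633 by limma). IFI35 lay at -0.66 and the kinase gene IKBKE at -0.67 (adjusted p = 0.134 and 0.147 by limma). All 5 had both shSiah2 arrays below both pLKO.1 arrays, a pattern shown by 10 of the 45 (22.2%, against 26% of all tested genes). The 22 further responsive genes had a median of 0.02, with 11 below and 11 above 0, and the 5 tested negative regulators had a median of -0.07.

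**Figure D4:**
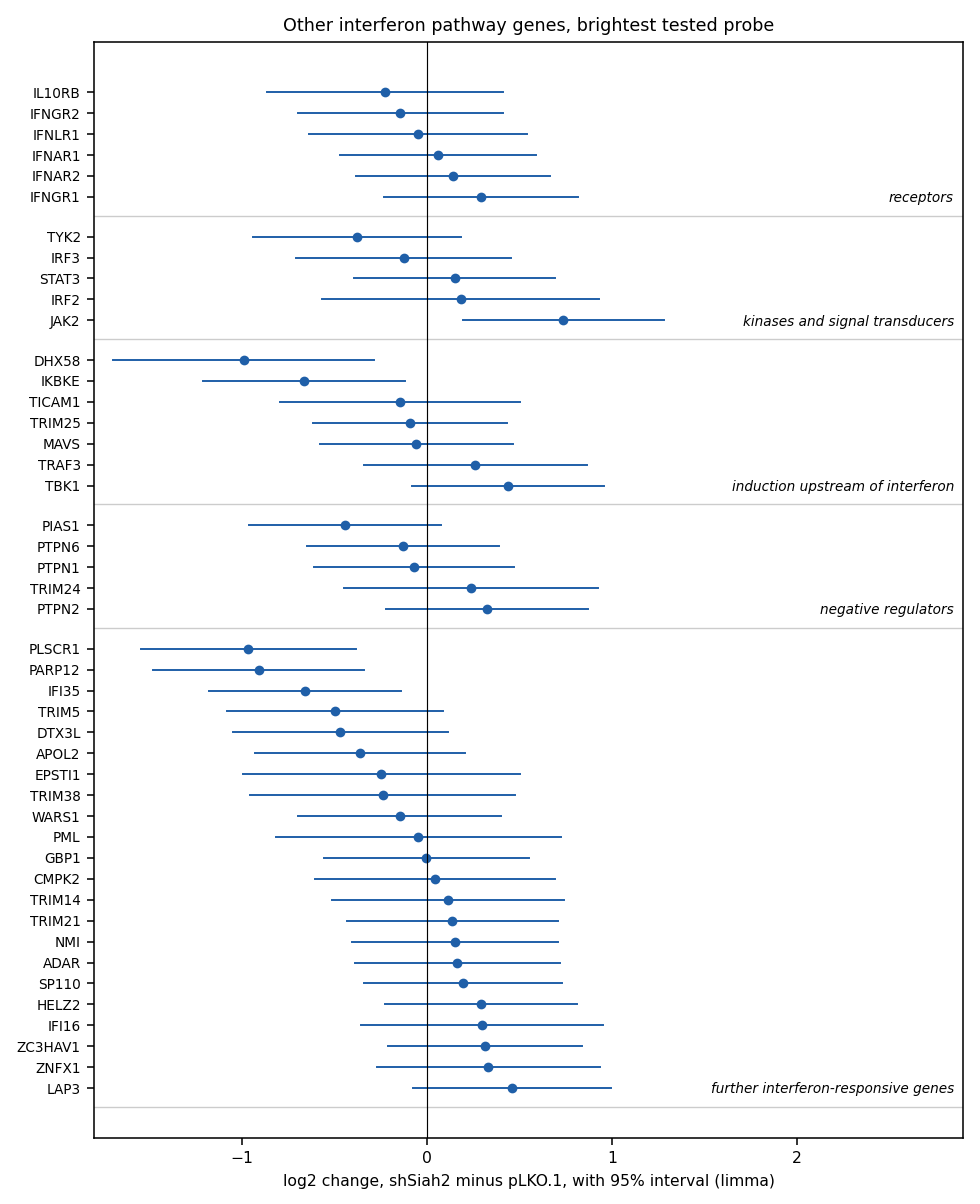
Log2 change, shSiah2 minus pLKO.1 (x axis, points), with its 95% interval (lines) for the 45 other tested pathway genes, by role and in order of change. The values run from -0.99 for DHX58 to 0.73 for JAK2, and 0 of them passed the adjusted threshold by limma.

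The size of the falls depended on the background correction more than the direction did. With no correction the 6 called genes lay between -0.50 and -1.45, with IFIH1 at -0.99, PARP14 at -0.67 and IFITM1 at -0.50 (adjusted p = 0.0704 by limma). With the authors' value table they lay between -0.74 and -1.59, with IFIH1 at -1.25. Without pLKO.1 replicate 1 the count was 3, as MX1 at -1.10, IFITM1 at -1.10 (adjusted p = 0.097 by limma for both) and PARP14 at -1.35 (adjusted p = 0.0508 by limma) did not pass. HERC5, IFIH1 and PARP9 passed in all 14 alternatives run for them.

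**Figure D5:**
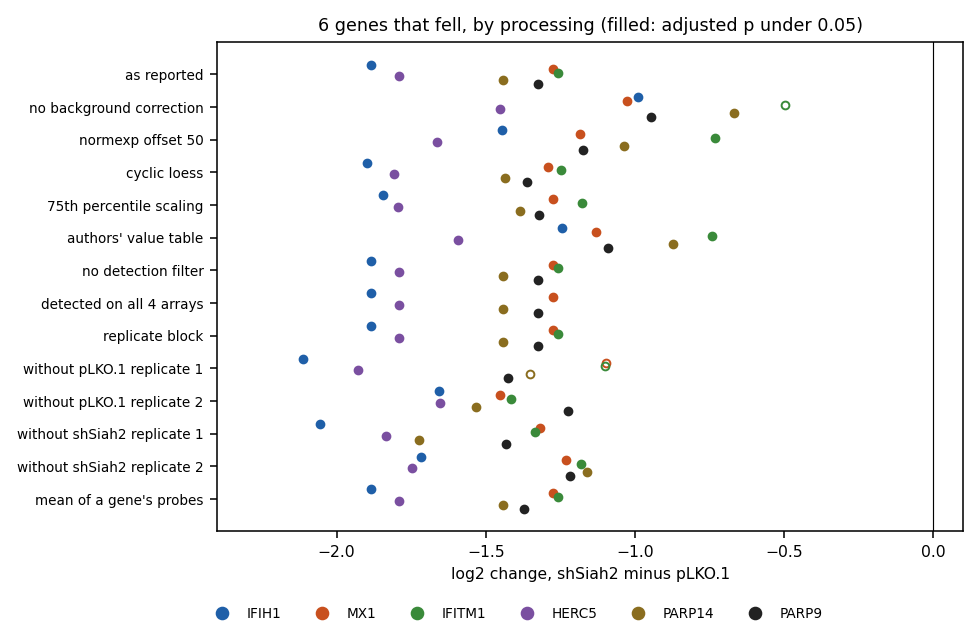
Log2 change, shSiah2 minus pLKO.1 (x axis), of the 6 genes that fell under each way of processing (rows), 1 colour per gene. Filled points passed an adjusted p under 0.05 by limma and open points did not. All points lie below 0, and the open ones are IFITM1 without background correction and IFITM1, MX1 and PARP14 without pLKO.1 replicate 1.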

How the data were processed

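Per the labels' protocols, biotin-labelled cRNA was prepared from total RNA for Illumina bead arrays. The deposited intensities, with the deposited detection p-values, are linear signals of 47228 probes, with no normalization named in the file. The authors' value table, deposited on a log2 scale (slope 1.01 to 1.02 against log2 intensity), holds the 24733 probes detected on at least 1 array. Its column medians were 7.59 to 7.62, and its normalization between arrays is not given in the sources used here.

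Intensities were processed with neqc (limma 3.58.1, R 4.3.3), which applies normexp from detection p-values, offset 16, quantile normalization and log2. Probes detected on at least 2 arrays were fitted with lmFit and eBayes, two-sided, without covariates, and p-values adjusted by Benjamini-Hochberg over all 20750. The number of arrays limits the precision. With 2 against 2, an exact permutation test cannot go below p = 0.333 and was not used.

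Names came from the platform annotation, updated through Entrez IDs to RefSeq (GRCh38.p14), which also gave the promoters. In 2753 of 2753 overlapping pairs of opposite strand, windows were reverse complements, so sequences run along their gene. The members, lists and motifs were chosen with earlier results of these data known. The rule named SIAH2, all members, tested receptors, kinases and markers. Other pathway genes named were chosen after their values were seen. Alternatives changed background, normalization, filter, value source, probe choice and arrays, or added a replicate block.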

Additional observations from a re-analysis of the deposited data

How the results depend on the processing

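SIAH2 fell under all 14 alternatives, at -2.0 to -1.09. The count of interferon-stimulated genes that fell was 6 to 8 in the 10 alternatives that used all arrays, and 3 to 7 in those that dropped 1 array (3 without pLKO.1 replicate 1). The share of all tested genes that fell ran from 2.25% to 6.7% in the former and from 2% (without pLKO.1 replicate 1) to 4.78% in the latter. The count that rose was 0 in all of them by limma. The median was -0.15 when the background was left in, -0.22 at a normexp offset of 50 and -0.19 from the authors' value table. It was -0.38 when probes were averaged per gene or with the probe brightest on the pLKO.1 arrays (a choice made after seeing the data, under which 8 genes fell), and -0.40 to -0.35 with each array left out. Under the replicate block, which left the median at -0.28, 7 members (and 6.08% of all tested genes) fell and SIAH2 had an adjusted p = 0.000495. Same-numbered arrays correlated in their deviations at 0.0891, and the labels do not say whether they share a culture or day. IFITM3, not called as reported, passed without background correction, at offset 50 and with the authors' table. BST2 lay at -1.37 without shSiah2 replicate 1. An equal count of 6 did not always hold the same genes. Without background correction IFITM3 fell and IFITM1 did not. With detection required on all 4 arrays HERC6 fell and IFITM1 was not tested.

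Changes of sign were seen for genes that had not been called. OAS1 lay at 0.0086 without background correction, 0.0047 at offset 50, 0.0059 after scaling to the 75th percentile and 0.0063 in the authors' table. IFIT3 lay at -0.0090 without background correction, -0.019 with cyclic loess and -0.0043 with the authors' table. ISG15 lay at -0.019 after scaling to the 75th percentile and at -0.017 in the authors' table. With the mean of probes IFI6 lay at -0.53 and UBE2L6 at -0.74, and with the probe brightest on pLKO.1 arrays at -1.33 and -1.59. Leaving out each array gave -0.56 to 0.14 for RIGI, -0.89 to 0.27 for EIF2AK2, -0.40 to 0.38 for OAS1, -0.48 to 0.13 for OAS3, -0.34 to 0.35 for IFIT3, -0.39 to 0.12 for XAF1, -0.16 to 0.35 for ISG15, -0.045 to 0.26 for UBE2L6, -0.84 to 1.04 for IRF1 and -0.14 to 0.70 for IRF9. The dimmer IFI6 probe did not pass without a detection filter (adjusted p = 0.107) or without pLKO.1 replicate 1, pLKO.1 replicate 2 or shSiah2 replicate 2 (adjusted p = 0.0731 to 0.15), and the dimmer UBE2L6 probe passed in all 11 fits run for it. Without background correction these probes lay at -0.69 and -0.67. The cause of these shifts was not tested. The slide as a block was not run, as the files name no slides. Of the 28 genes, 21 were detected on all 4 arrays, and 7 on 2 or 3 arrays.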
